A study of Drosophila melanogaster with 8 samples.

Results

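The genes described here encode the proteins of the cytosolic ribosome of Drosophila melanogaster. They were taken by symbol: every counted feature whose FlyBase symbol is RpL, RpS or RpLP followed by a number, with or without letters, together with sta, the gene of a small subunit protein, and sop, an older symbol of the RpS2 gene. This gave 81 of the 17445 features (FlyBase gene identifiers) in the count files, 45 for the large and 36 for the small subunit. The features were further divided by whether an exon of another gene lies over them on the opposite DNA strand. Among large subunit genes 15 had such an opposite-strand exon and 30 did not, and among small subunit genes 6 did and 30 did not. The current symbols RpS10b, RpL27A, RpL31, RpL19 and RpS12 belong to identifiers that did not match the counted ones and were not analysed here.

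Each ribosomal protein is built into the ribosome next to ribosomal RNA, and the protein and RNA parts are made together in growing cells, so that these genes are among the standard readouts of growth and of the capacity to make protein. Most of them are required for viability, and flies with a single working copy of many of them develop slowly and have short bristles, the Minute phenotype. The larval stages are the main period of growth in the fly.

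RNA was sequenced from whole larvae in the middle of the second instar, 25 larvae per sample, reared for 60 hours at 25 °C on yeast paste over molasses agar. The 4 Ldh mutant libraries (genotype w[1118]; Ldh[16/17], replicates 1, 2, 3 and 6) carried mutant alleles of lactate dehydrogenase, the enzyme that converts pyruvate to lactate and recycles NADH. The 4 control libraries (w[1118]; Ldh[precise], replicates 1, 2, 5 and 6) carried a precise excision at the same gene, and both groups shared the w[1118] background. The methods of the study describe heterozygous controls and other numbers of replicates and larvae for its RNA-seq. The labels were followed here, so the control genotype behind each fold change is the one they give. The comparison asked how the counts of ribosomal protein genes differed when Ldh was lost.

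As a check of the labels, Ldh had 0 reads in every mutant library and 4, 3, 5 and 1 reads in the controls (two-sided exact permutation test, p = 0.0286, the lowest value that 4 against 4 libraries can give). Reads assigned to a gene numbered 371700 to 560865 per library, 1.24% to 1.62% of the lines tallied in a file, with 469883 ± 34900 for the mutants and 438054 ± 84060 for the controls (mean ± SD, n = 4). Features with an opposite-strand exon made up 26.1% of the 17151 placed features and held 94.2% of the gene reads. Of the uniquely aligned reads, 97.8% to 98.1% fell in no feature. Whether the counts read a feature's own strand is not given in the sources used here, which limits every level below, also of members with no opposite-strand exon, as a measure of that gene's own RNA. Markers of muscle were well counted (1336 to 1831 CPM, counts scaled to a common library total, summed over 5 genes). The 6 fat body markers summed to at most 16.7 CPM, and Fbp1 and the salivary gland genes Sgs3 and Sgs7 had no reads. Whether these genes are active in the second instar was not tested, so their low counts do not show that a tissue was missing. The 5 hemocyte markers summed to 106 to 141 CPM in mutants and 176 to 211 CPM in controls, without overlap (lowest adjusted p = 0.0714 by edgeR). Of all single features tested with edgeR, 9.54% also had groups without overlap. Most of the sum came from the collagen genes Col4a1 and vkg, while Hml, NimC1 and Ppn had at most 4 reads in a library. NimC1 and Ppn had higher means in mutants (1.59 and 3.78 CPM against 0.864 and 1.67), and Hml a lower one (2.15 against 4.40). In whole larvae, fewer cells of a type and less RNA per cell cannot be told apart.

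Ribosomal protein features were counted at low levels, and a few genes carried most of their reads. All members together had 1943 to 3108 reads per library. RpL27 alone held 27.3% of the members' reads, RpL27, RpL12 and RpS25 together 47.8%, and the 10 most counted members 69.7%. The median member had 9.63 reads per library. RpL10Aa, RpS10a and RpS19b had no reads in any library, which allows up to 0.826 CPM over all libraries together (3 reads over the 3631746 gene reads, counting error only).

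**Figure D1:**
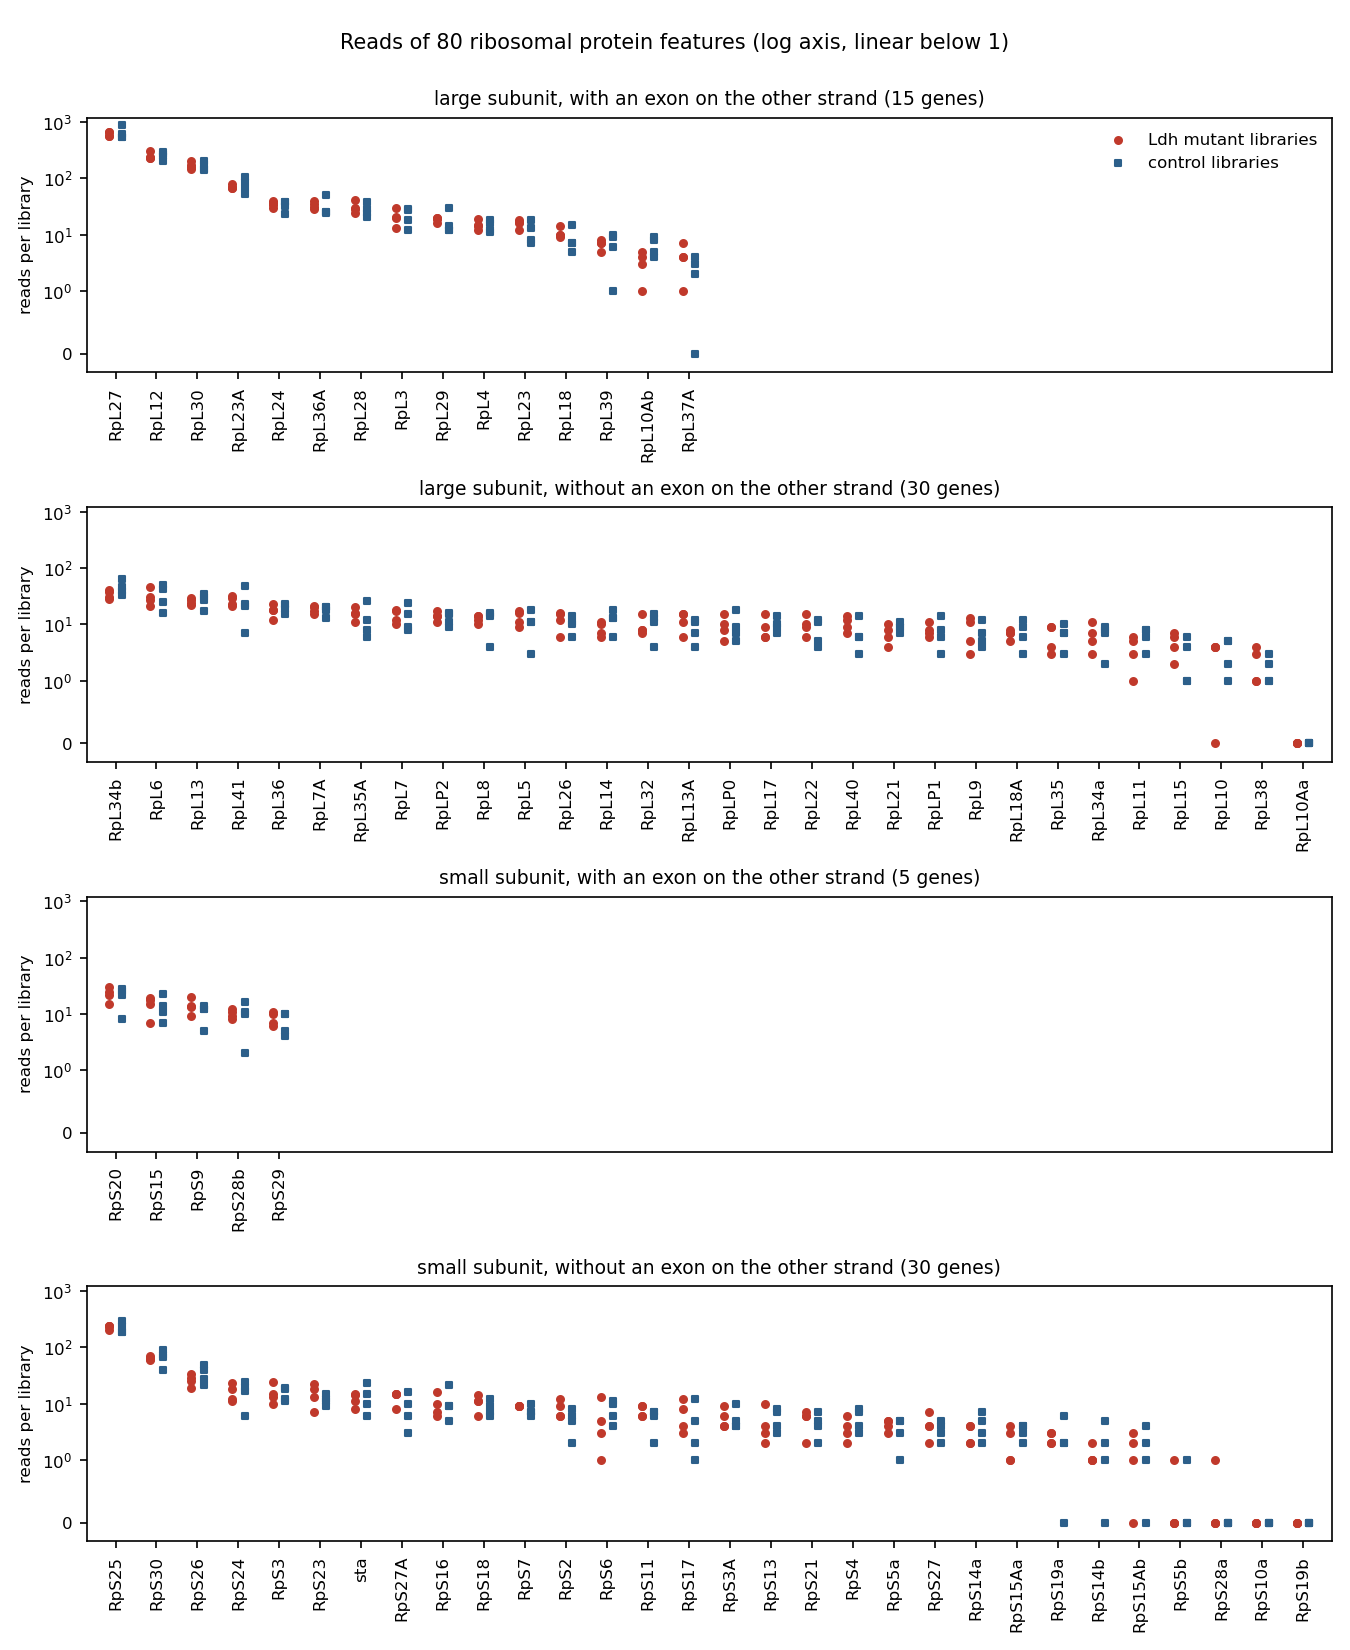
Reads per library (vertical log axis, linear below 1) for 80 of the 81 ribosomal protein features, split by subunit and by the presence of an opposite-strand exon, with circles for the 4 Ldh mutant and squares for the 4 control libraries. RpL27 reaches 549 to 884 reads per library, and most of the 60 genes with no opposite-strand exon lie near or below 10 reads, with circles and squares intermixed.

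Per length, the order of levels was led by RpL27 and RpS25. RpL27 (3R, 25683623 to 25685051, minus strand) had 1417 ± 138 CPM per kilobase of exon over all 8 libraries (SD), above every other member in every library. RpS25 (3R, 11215028 to 11216287, minus strand), a small subunit gene with no opposite-strand exon, followed with 584 ± 61.3 CPM per kilobase. RpL12 (483 ± 62.4) and RpL30 (466 ± 58.7 CPM per kilobase) came next, and the ranges of RpS25, RpL12 and RpL30 over the libraries overlapped each with the next. A gap then separated RpL30, at 374 or more CPM per kilobase, from RpS30, at 291 or less. From RpS30 downwards every member's range overlapped that of the next one. Neighbours were not compared within each library, so overlapping ranges do not show that their levels were equal. RpL32, used widely as a reference gene in quantitative PCR, stood at rank 33 with 28.1 ± 11.4 CPM per kilobase.

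The median member with an opposite-strand exon had 23.0 reads per kilobase of exon, and the median of the 60 members without one was 9.20. The same division ran through all protein-coding genes, whose medians were 4.57 reads per kilobase with an opposite-strand exon (3759 genes) and 0.127 without (9939 genes). Set against genes of their own kind, the median of the members without an opposite-strand exon lay above 97.7% of genes, and that of the members with one above 77.4%. Exon length told little about the counts: over the 60 members without an opposite-strand exon, Spearman's correlation of exon length with mean reads was 0.07. This correlation is a description across genes counted in the same libraries.

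The summed share of gene reads that fell in ribosomal protein features was close to 0.5% in every library. It was 0.492%, 0.508%, 0.474% and 0.509% in mutant replicates 1, 2, 3 and 6 and 0.520%, 0.516%, 0.554% and 0.523% in control replicates 1, 2, 5 and 6. The 4 mutant libraries therefore lay below the 4 controls, with means of 0.496% ± 0.0162 and 0.528% ± 0.0174 (SD, n = 4 each). With library totals scaled by the trimmed mean of M values (TMM), which weights a few abundant features less, the means were 0.504% ± 0.00745 and 0.519% ± 0.0144 and the groups overlapped (0.495% to 0.513% and 0.507% to 0.537%). No test was made on these sums. Of all single features tested with edgeR, 9.54% had groups without overlap in CPM. Library totals also placed features in general lower in mutants. The median log2 fold change was then -0.04 over all features and -0.06 for members, beside 0.008 and -0.003 with TMM. The hemocyte marker sum, mainly Col4a1 and vkg, moved in the same direction, while NimC1 and Ppn did not. Other markers also leaned lower in mutants. The 5 muscle markers had a median log2 fold change of -0.15, mutant over control, with only Mlc2 positive (0.008). Of the nervous system markers only elav passed the filter (-0.18, adjusted p = 0.356 by edgeR), and Syt1, brp and repo had higher means in mutants. The part of any of these genes in the difference was not tested.

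Among the 4 classes, large subunit genes with an opposite-strand exon held most of the share, 0.278% ± 0.0226 in mutants and 0.303% ± 0.0192 in controls. Large subunit genes without one held 0.0762% ± 0.00616 and 0.0823% ± 0.0143. Small subunit genes with an opposite-strand exon held 0.0375% ± 0.00172 and 0.0335% ± 0.00605, and those without 0.104% ± 0.00479 and 0.110% ± 0.00523 (SD, n = 4 throughout). The mutant and control libraries overlapped in each of the 4 classes. For the large subunit as a whole they did not (0.331% to 0.372% in mutants, 0.374% to 0.402% in controls), whereas for the small subunit as a whole they did. With TMM-scaled totals the large subunit overlapped too (0.346% to 0.370% and 0.369% to 0.390%). The direction depended on the denominator in the classes without an opposite-strand exon. As a percent of the reads of features with no opposite-strand exon, the large subunit class held 1.49% ± 0.0525 in mutants and 1.45% ± 0.280 in controls, and the small subunit class 2.03% ± 0.121 and 1.93% ± 0.0754, with overlapping groups in both.

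**Figure D2:**
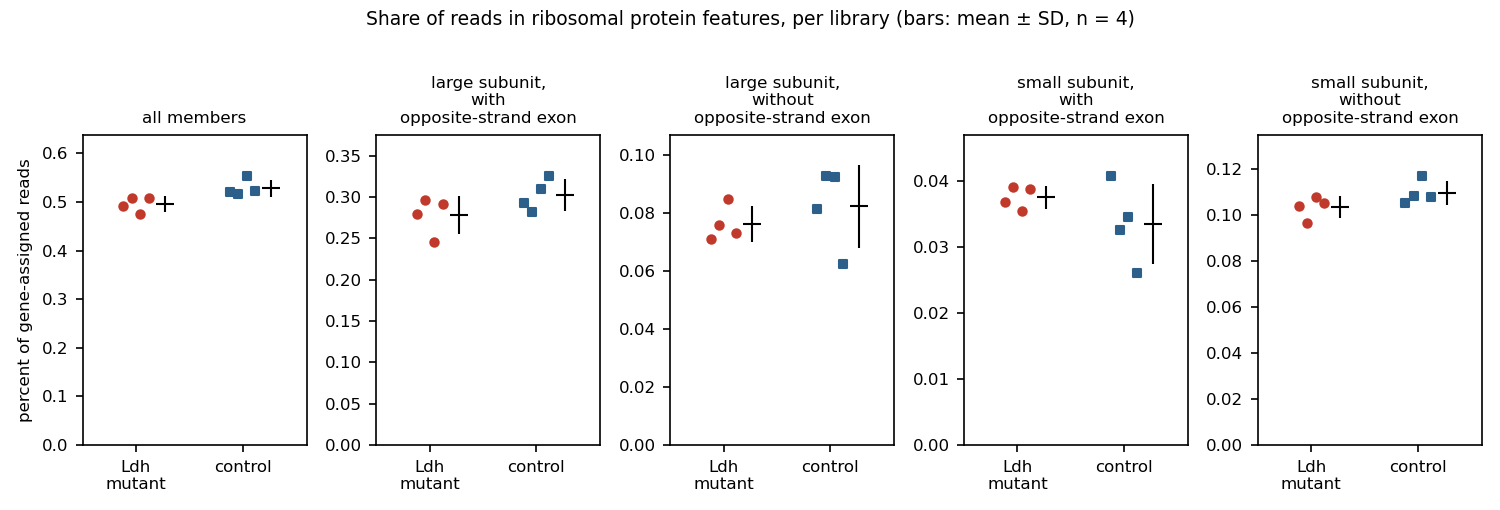
Percent of gene-assigned reads in all ribosomal protein features and in the 4 classes by subunit and opposite-strand exon, 1 point per library, with bars for mean ± SD (n = 4) and axes from 0. For all members the mutants lie at 0.474% to 0.509% and the controls at 0.516% to 0.554%, and in each single class the groups overlap.

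No ribosomal protein gene was called between Ldh mutants and controls. The edgeR quasi-likelihood test was fitted on all features that passed its expression filter, and a feature was called at a Benjamini-Hochberg adjusted p under 0.05. Of the 39 members that passed the filter 0 were called, where 3.17% of all 2589 features tested were called (1.54% higher and 1.62% lower in mutants). At an unadjusted p under 0.05 there was 1 member, RpL34b, against 15.3% of all features, and the lowest adjusted p of a member was 0.178. DESeq2 gave 0 members and limma-voom 2 members at an unadjusted p under 0.05, and neither called any.

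The members' log2 fold changes, mutant over control, were small and lay on both sides of 0. They were positive for 19 and negative for 20 of the 39. Their median was -0.003 beside 0.008 over all features tested, and with TMM factors computed only on features with no opposite-strand exon it was 0.14 beside 0.16, so their place relative to all features hardly moved while the sign did. The median absolute log2 fold change was 0.11 for members and 0.18 for all features. For 34 of the 39 members the 95% interval lay inside a 2-fold change either way, for 12 inside a 1.5-fold change, and for 38 it contained 0. By class the medians were 0.02 for large subunit genes with an opposite-strand exon (11 tested), -0.02 for those without (15), 0.06 for small subunit genes with one (5) and -0.07 for those without (8). In simulated data of the same size 77.6% of features changed 2-fold were recovered and 26.9% of those changed 1.5-fold. Over all features, smaller differences than 2-fold were therefore often not detectable at this depth. The changed features were drawn from all 2589 tested, so recovery among the members alone is not known. Standard errors of the tested members' log2 fold changes ran from 0.10 to 0.40, and for members with few reads a 2-fold change may also have been missed.

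**Figure D3:**
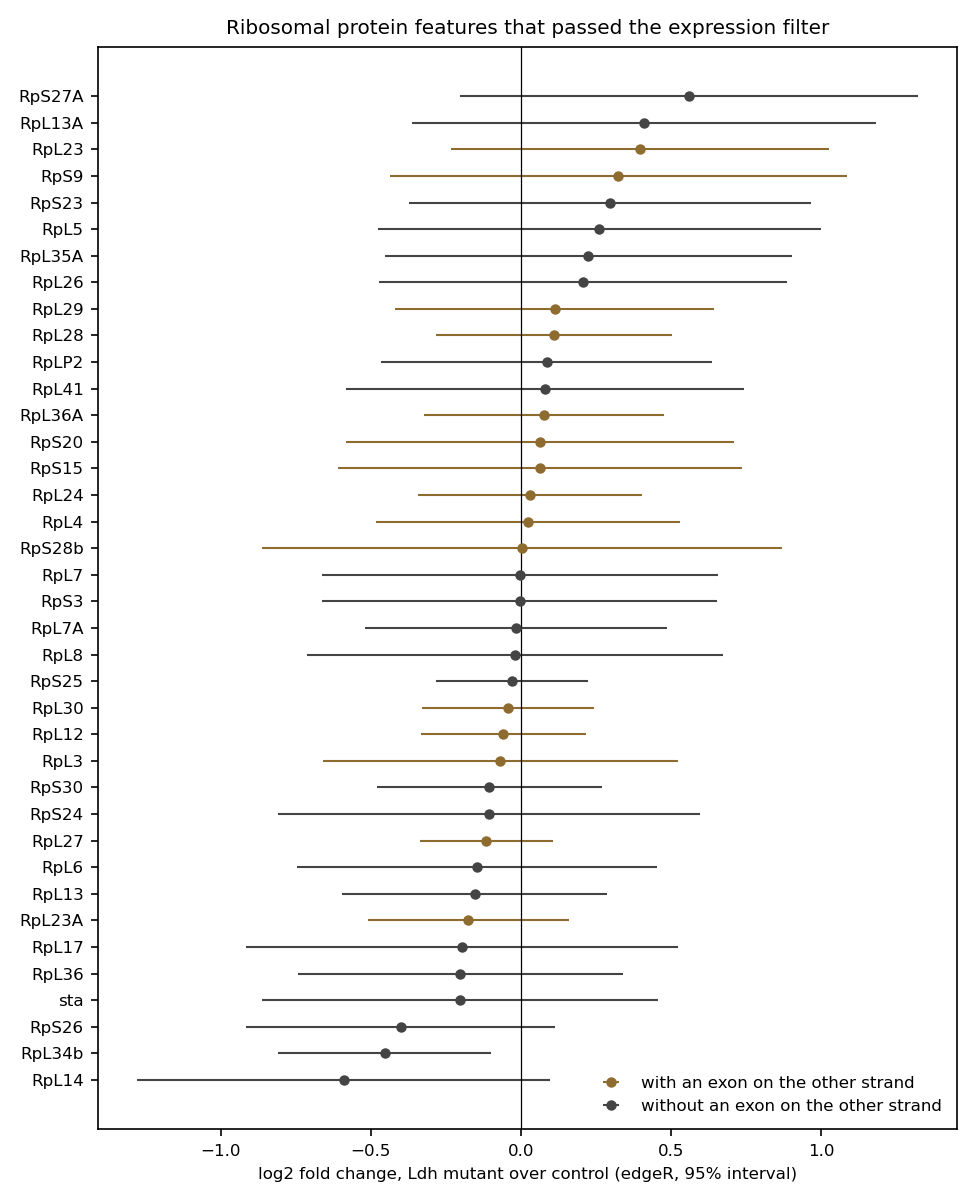
Log2 fold change of Ldh mutant over control for 38 of the 39 ribosomal protein features tested with edgeR, with bars for the 95% interval and colour for the presence of an opposite-strand exon. The values run from -0.59 for RpL14 to 0.56 for RpS27A, and of the 38 intervals drawn only that of RpL34b leaves out 0.

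The most counted large subunit genes were measured most precisely. RpL27 had 573, 671, 568 and 663 reads in mutant replicates 1, 2, 3 and 6 and 550, 549, 884 and 619 in control replicates 1, 2, 5 and 6. In CPM this was 1343 ± 116 and 1454 ± 146 (SD, n = 4), and the groups overlapped, with a log2 fold change of -0.12 (SE 0.10, adjusted p = 0.693 by edgeR). RpL12 (2R, 24060378 to 24061860), whose protein lies at the base of the ribosomal stalk, had 229, 306, 233 and 242 reads against 199, 246, 289 and 268 and a log2 fold change of -0.06 (SE 0.13, adjusted p = 0.904 by edgeR). RpL30 (2L, 19008031 to 19009306) had 157, 206, 144 and 174 reads against 181, 140, 207 and 145, and its log2 fold change was -0.04 (SE 0.13, adjusted p = 0.943 by edgeR). The intervals of these 3 genes lay inside 1.5-fold either way, from 0.79 to 1.19 as ratios of mutant to control.

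Among large subunit genes without an opposite-strand exon, RpL34b was the member nearest to a call. RpL34b (3R, 9400237 to 9401226, minus strand) had 30, 37, 41 and 28 reads in mutants and 45, 39, 64 and 33 in controls. After scaling this was 61.8 to 85.6 CPM in mutants and 86.2 to 113 CPM in controls, so the groups did not overlap, as for 9.54% of all features tested. Its log2 fold change was -0.45 (SE 0.17, unadjusted p = 0.0158, adjusted p = 0.178 by edgeR). RpL6 (21, 30, 46 and 27 reads against 25, 49, 43 and 16) and RpL13 (22, 24, 27 and 29 against 27, 31, 35 and 17) were the next most counted of this class, with log2 fold changes of -0.15 (SE 0.28) and -0.15 (SE 0.21). For both the groups overlapped.

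Besides RpL34b, the largest differences among the large subunit genes that passed the filter belonged to members with fewer reads. RpL14 had 7, 6, 10 and 11 reads in mutants and 13, 13, 18 and 6 in controls, a log2 fold change of -0.59 (SE 0.32, adjusted p = 0.411 by edgeR). Control replicate 6 stood apart at 15.7 CPM, inside the mutant range, while the other 3 controls lay at 30.6 to 32.6 CPM. RpL36, with 18, 18, 12 and 23 reads against 19, 22, 23 and 15, had a log2 fold change of -0.20 (SE 0.25). On the positive side RpL13A had 11, 15, 15 and 6 reads against 7, 4, 12 and 11, with a log2 fold change of 0.41 (SE 0.36). RpL23 had 12, 18, 17 and 16 reads against 7, 18, 13 and 8, with 0.40 (SE 0.29), and RpL5, whose protein binds the 5S ribosomal RNA, had 11, 16, 17 and 9 against 11, 11, 18 and 3, with 0.26 (SE 0.34). In each of these genes the mutant and control libraries overlapped, and the edgeR adjusted p was 0.411 or above.

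RpLP0, RpLP1 and RpLP2 form the stalk, the flexible arm of the large subunit that recruits translation factors. RpLP2 passed the filter, with 14, 14, 17 and 11 reads in mutants and 9, 15, 16 and 11 in controls and a log2 fold change of 0.09 (SE 0.26, adjusted p = 0.943 by edgeR). RpLP0 (5, 8, 15 and 10 reads against 7, 9, 18 and 5) and RpLP1 (6, 7, 8 and 11 against 14, 3, 8 and 6) lay below it. In the exact two-sided permutation test on log2(CPM + 1), p was 0.886 for RpLP0 and 0.83 for RpLP1. The groups overlapped for all 3 stalk genes.

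In the small subunit RpS25 had the most reads. RpS25 had 202, 237, 238 and 236 reads in mutants and 189, 183, 293 and 234 in controls, or 494 ± 19.6 and 506 ± 77.2 CPM (SD, n = 4), with a log2 fold change of -0.03 (SE 0.12, adjusted p = 0.953 by edgeR). The controls spread over a wider range than the mutants and enclosed them.

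RpS30, made in flies as a fusion with a ubiquitin-like protein, had 69, 61, 60 and 65 reads in mutants and 72, 66, 90 and 40 in controls (log2 fold change -0.11, SE 0.17). RpS26, with 25, 34, 28 and 19 reads against 27, 48, 39 and 21, had a log2 fold change of -0.40 (SE 0.24, adjusted p = 0.486 by edgeR). RpS24 (11, 12, 23 and 18 against 20, 17, 24 and 6) and sta (8, 15, 14 and 11 against 10, 15, 23 and 6), which encodes the laminin receptor homologue of the small subunit, had -0.11 (SE 0.33) and -0.20 (SE 0.31). RpS23, a protein of the decoding centre, had 7, 13, 18 and 22 reads against 11, 12, 15 and 9 and a log2 fold change of 0.30 (SE 0.31). The groups overlapped for each of these genes. RpS20 (22, 30, 24 and 15 against 28, 22, 26 and 8) and RpS15 (7, 15, 19 and 18 against 11, 14, 23 and 7) both had a log2 fold change of 0.06 (SE 0.30 and 0.31).

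RpS27A and RpL40 are made as fusions with ubiquitin and so also supply the ubiquitin of the cell. RpS27A had the most positive log2 fold change of the members that passed the filter, 0.56 (SE 0.36, adjusted p = 0.523 by edgeR), from 15, 15, 15 and 8 reads in mutants and 6, 10, 16 and 3 in controls. RpL40, below the filter, had 7, 14, 9 and 12 reads against 6, 6, 14 and 3 (exact permutation p = 0.143). In CPM, control replicate 5 had 27.7 for RpS27A beside 17.6 to 36.1 in mutants, and 24.2 for RpL40 beside 16.8 to 28.0. The groups overlapped in both genes.

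The members known from regulation and repair were sparse. RpS6, the substrate of S6 kinase downstream of insulin and TOR signalling, had 3, 1, 13 and 5 reads in mutants and 6, 11, 10 and 4 in controls (exact permutation p = 0.343). RpS3, which also has DNA repair activity, had 15, 10, 24 and 13 reads against 11, 12, 19 and 18, with a log2 fold change of -0.004 (SE 0.31). RpL32 had 8, 15, 8 and 7 reads against 13, 15, 11 and 4 (exact permutation p = 0.714), and RpS2 had 9, 6, 12 and 6 against 6, 2, 8 and 5 (p = 0.257 in the same exact test). None of these 4 genes separated the groups.

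The 42 members below the filter comprised 19 of the large and 23 of the small subunit, and 39 of them had at least 1 read. In the exact permutation test on log2(CPM + 1), in which 4 against 4 libraries can reach p = 0.0286 at the smallest, 0 of the 39 had a p under 0.05, where 2.04% of all 8884 features below the filter with a read did. The smallest was 0.0571, for RpL10Ab (3, 4, 1 and 5 reads against 4, 8, 9 and 5). For the 37 members with at least 4 reads in each group, a group's summed reads were divided by its summed TMM-scaled library totals. The ratio of mutants to controls ran from 0.483 for RpL10Ab to 1.72 for RpL37A with a median of 0.966. Of the 37 exact 95% intervals 36 contained 1. Only 13 of these intervals lay wholly between 0.5 and 2.

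Duplicated ribosomal protein genes were unequal within each pair. In each of the 7 pairs whose symbols differ in a last letter a or b, the reads over all 8 libraries were 317 for RpL34b and 52 for RpL34a, 79 for RpS28b and 1 for RpS28a, 31 for RpS5a and 2 for RpS5b, and 20 for RpS19a and 0 for RpS19b. RpL10Ab had 39 reads and RpL10Aa 0. RpS14a (29 and 13 for RpS14b) and RpS15Aa (22 and 13 for RpS15Ab) differed less. The copy with fewer reads was the same in mutants and controls in each pair. Alignments that were not unique were not counted, so the levels of near-identical copies are uncertain.

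On the strand opposite the ribosomal protein genes lay some of the most counted features of these libraries. Of the 19 features with an exon opposite a member, other than RpL12 and RpL39, which overlap each other by 8 bases, 15 had more reads than the member they overlap. Together they held 5.95% to 7.23% of the gene reads of a library. With the strand setting not given, the sources do not show whether a member's counts are its own RNA or that of its opposite-strand partner. Reads left out as ambiguous between features numbered 7645 to 11565 per library. The feature opposite RpS9 alone had 13829 to 22717 reads. What these numbers say about the strand setting was not tested. Of the 21 members with an opposite-strand exon, 10 share 15 bases or fewer with it.

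**Figure D4:**
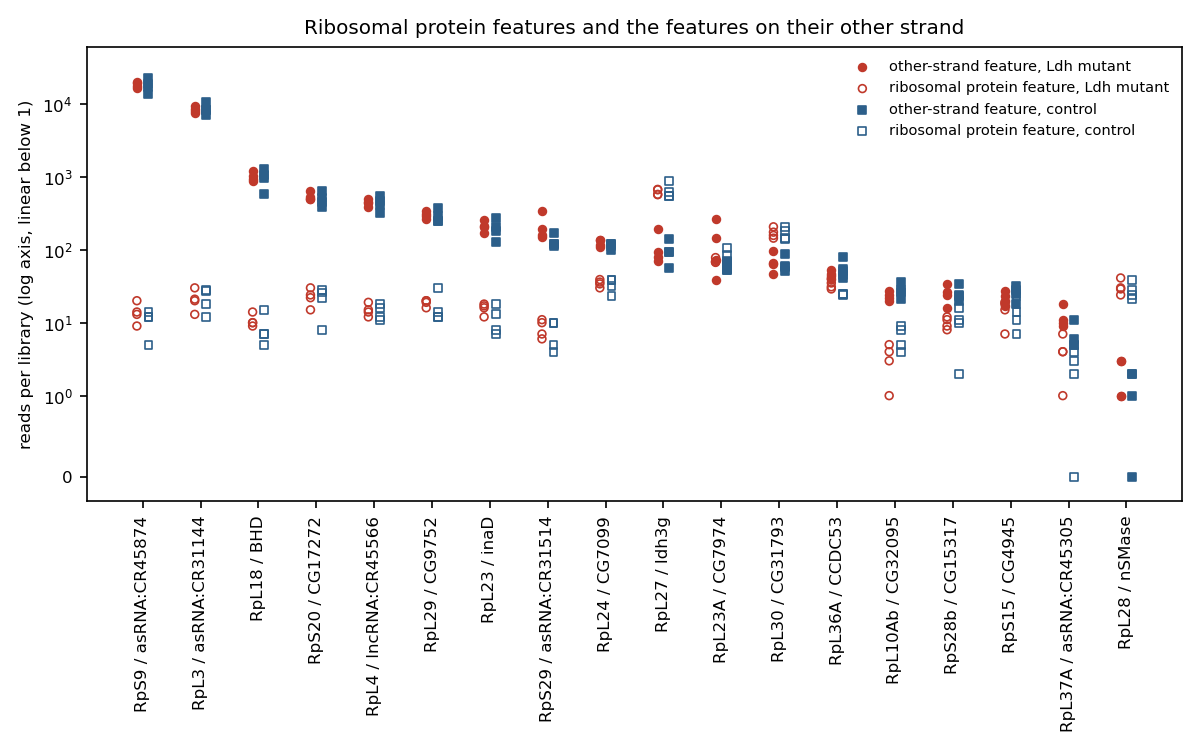
Reads per library (log axis, linear below 1) of 18 features with an exon on the other strand of a ribosomal protein gene (filled) and of that gene (open), circles for Ldh mutants and squares for controls. The feature opposite RpS9 has 13829 to 22717 reads where RpS9 has 5 to 20, while for RpL27 the open symbols lie above the filled ones.

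The most counted were 2 antisense RNA features. asRNA:CR45874 (3L, 9510017 to 9510889, plus strand) shares 512 exon bases with RpS9 (3L, 9509793 to 9511531, minus strand). It had 17340, 19740, 19463 and 16272 reads in mutants and 16857, 18630, 22717 and 13829 in controls, and a log2 fold change of -0.03 (SE 0.08, adjusted p = 0.920 by edgeR). RpS9 itself had 14, 13, 9 and 20 reads against 14, 5, 12 and 12 (log2 fold change 0.32, SE 0.35, adjusted p = 0.762 by edgeR). asRNA:CR31144 (3R, 11222414 to 11223029, minus strand) shares 412 exon bases with RpL3 (3R, 11221894 to 11225173, plus strand). It had 7419, 8376, 9418 and 7947 reads in mutants and 8134, 8289, 10600 and 7093 in controls, with a log2 fold change of -0.10 (SE 0.08, adjusted p = 0.657 by edgeR). RpL3 had 13 to 30 reads in mutants and 12 to 28 in controls (log2 fold change -0.07, SE 0.28). Neither antisense feature separated the groups.

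**Figure D5:**
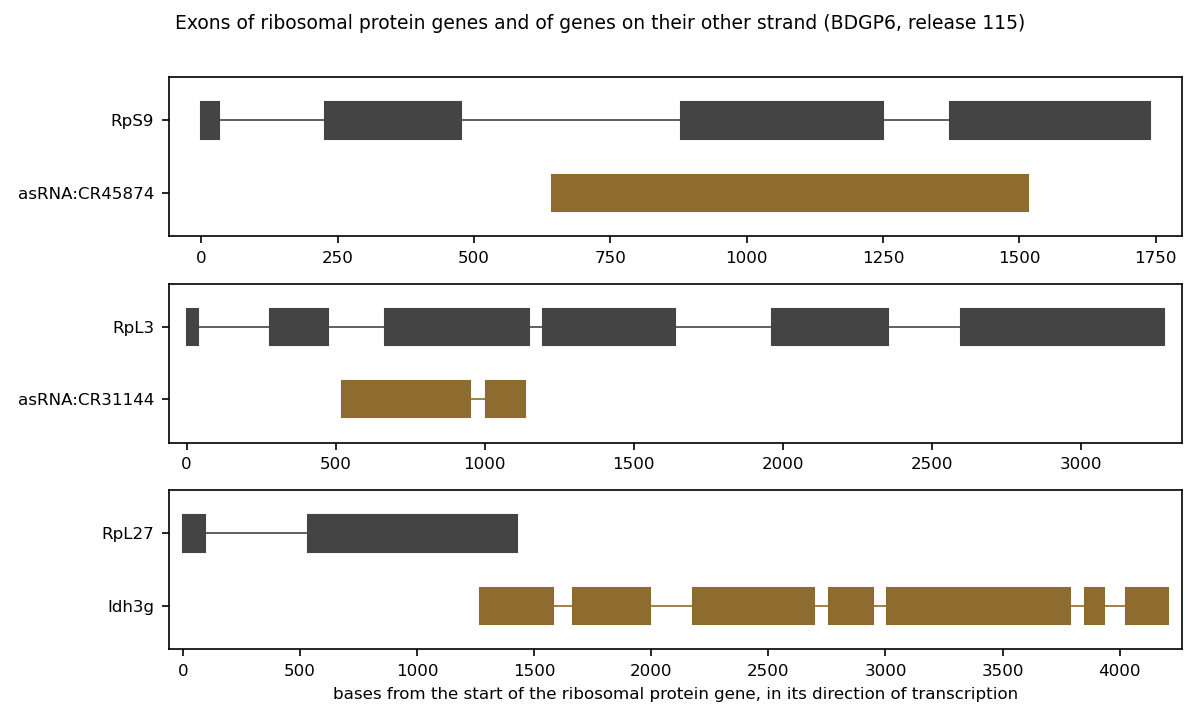
Exons (boxes) and introns (lines) of RpS9, RpL3 and RpL27 and of the gene on the other strand of each, drawn to scale in bases from the start of the ribosomal protein gene in its direction of transcription. The antisense features of RpS9 and RpL3 lie within the gene and share 512 and 412 exon bases with it, while Idh3g shares 158 bases at the end of RpL27.

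Of the 9 features that share at least 50 bases with a member, 8 were tested and 1 was called, and at any overlap 1 of 17 tested was called, beside 3.17% of all features. Among the most counted of those not called, fold changes were close to 0 or variable. CG7099 opposite RpL24 (273 shared bases) had 109, 136, 117 and 137 reads in mutants and 118, 112, 119 and 98 in controls, with a log2 fold change of 0.09 (SE 0.14). Idh3g, a subunit of the mitochondrial isocitrate dehydrogenase, had 79, 191, 71 and 94 reads against 92, 140, 93 and 57 opposite RpL27, with 0.10 (SE 0.29). Here the ribosomal protein gene had the more reads. CG7974 opposite RpL23A (121 shared bases) had 267, 147, 38 and 73 reads against 52, 67, 70 and 54, so mutant replicate 1 was high and replicate 3 below all controls, and its log2 fold change was 1.09 (SE 0.44, adjusted p = 0.237 by edgeR). Without mutant replicate 1 the log2 fold change of CG7974 was 0.39 (adjusted p = 0.676 by edgeR), and without mutant replicate 3 it was 1.40 and CG7974 was called (adjusted p = 0.0147 by edgeR). RpL23A itself had 69, 68, 78 and 67 reads against 85, 67, 106 and 52 (log2 fold change -0.18, SE 0.16).

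In the wider translation apparatus no tested gene was called either, where 3.17% of all features tested were. Most of these genes were below the filter. Those tested were 13 of 42 ribosome biogenesis genes, 12 of 38 initiation factors and 5 of 12 elongation and release factors. For RNA polymerase I they were 2 of 10, and for growth regulators of ribosome synthesis 6 of 20. Of 13 tested ribosome biogenesis genes 0 were called, with a median log2 fold change of -0.04 and examples such as Nop60B, the pseudouridine synthase of ribosomal RNA (30 to 58 reads per library, log2 fold change 0.22, SE 0.16). Of 12 tested translation initiation factors 0 were called (median -0.02), among them eIF4A, the helicase of the cap-binding complex (13 to 38 reads, 0.14, SE 0.22) and eIF4EHP, a repressor that binds the cap (12 to 25 reads, -0.52, SE 0.25, adjusted p = 0.335 by edgeR). Of 5 tested elongation and release factors 0 were called (median -0.03), with eEF2, the translocation factor, at -0.01 (SE 0.33). Of 2 tested subunits of RNA polymerase I and 6 tested growth regulators of ribosome synthesis 0 were called. Myc, the transcription factor that drives ribosome synthesis, had 9 to 20 reads and a log2 fold change of 0.16 (SE 0.29), and Xrp1, the transcription factor induced in Minute cells, had 35 to 76 reads and 0.005 (SE 0.18). Ribosomal protein paralogues with hyphenated symbols, which the rule did not take, had at most 17 reads in a library and none passed the filter.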

How the data were processed

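Read counts were used as deposited, with no normalisation by the authors, in 1 file per library with a whole number for each FlyBase gene. The tools listed in the submitters' processing notes are HTSeq 0.6.1p1, Bowtie2 2.2.4, TopHat2 2.0.13, Trimmomatic 0.32, DESeq2 and CASAVA. Build, annotation, strand setting and library kit of the counting are not given in the sources used here. The 5 summary lines of each file, 98.4% to 98.8% of it, entered neither library sizes nor tests. Names, positions and opposite-strand exons came from the BDGP6 annotation, release 115, and pairs of features were described from 50 shared bases. Counts of all features were tested with edgeR 4.0.16 in R 4.3.3 (quasi-likelihood, default filter, TMM, robust estimation off, no covariate), with Benjamini-Hochberg adjustment over all features tested, after checks on simulated data. CPM are counts over the library total and the TMM factor. Features below the filter had an exact permutation test on log2(CPM + 1). Ratio intervals are exact 95% intervals and cover counting error only, since molecules were not tagged.

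Of the members, 1 is not reported here beyond its part in counts and sums, nor is the feature on its other strand. Members and lists were chosen with earlier results of these data known. Genes named with values were the 3 largest positive and negative log2 fold changes per subunit, the 3 most counted per class, genes known by role, paralogous pairs, and the most counted or called opposite-strand features. RpL10Ab, RpL37A, RpL23A and the fold changes of Nop60B, eIF4A, eIF4EHP, eEF2, Myc and Xrp1 were added after their values were seen. So were the values of the markers Col4a1, vkg, Hml, NimC1, Ppn, Mlc2 and elav, and the directions of Syt1, brp and repo. Whether the replicates of a group are separate cultures is not in the labels, and p-values therefore reflect only the variation among these samples, part of which may be technical. No 2 libraries of a group agreed within sampling noise (chi-square of 1.63 to 10.5 per degree of freedom), and all 8 were kept. Alternatives were other scalings (DESeq2 size factors, upper quartile, library totals), filters, DESeq2 1.42.0, limma-voom in limma 3.58.1, a replicate block, thresholds, pseudocounts and leaving out each library.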

Additional observations from a re-analysis of the deposited data

Results flagged for a closer look

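In a group of 4 libraries, a library was singled out when its gap to the nearest other relative to the group's range exceeded Dixon's 95% critical value, which chance alone gives in about 1 of 20 groups. Of 82 sets of 4 values 3 met this, where 4.1 would be by chance. RpL23 in Ldh mutant replicate 1 was low at 28.9 CPM beside 35.3 to 36.0 CPM in the other mutants. RpL14 in control replicate 6 was low at 15.7 CPM beside 30.6 to 32.6 CPM. The share of gene reads in all ribosomal protein features was high in control replicate 5, 0.554% beside 0.516% to 0.523% in the other controls.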

How the results depend on the processing

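No ribosomal protein feature was called under any of the scalings, filters, tools, thresholds or left-out libraries tried, each changed on its own. The threshold of 0.1 was applied to the main fit only. The lowest adjusted p of a member was 0.0743 without mutant replicate 3 (edgeR) and 0.0984 with limma-voom and quality weights, both under 0.1. Over all features, 184 were called with no filter, 134 with limma-voom and quality weights, 130 at an adjusted p under 0.1, and 57 to 168 with 1 library left out, highest without mutant replicate 3. The replicate numbers did not pair the samples (correlations of same-numbered deviations -0.11 to 0.01); on the 6 libraries that share numbers the replicate block gave 138 calls and 2 called opposite-strand features, and the same libraries without the block, a fit added after seeing the data, gave 118 and 2. Opposite-strand features called numbered 2 with no filter and 1 to 2 with 1 library left out, the second being CG7974, at log2 fold changes of 1.09 with no filter, 1.19 with the block and 1.34 without it.

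TMM on features with no opposite-strand exon raised the median of all features by 0.15 and gave 93 calls higher and 24 lower in mutants, where the counts were 40 and 42 (38 and 66 with library totals, 113 and 71 with no filter, 48 and 31 without mutant replicate 1). Under it the log2 fold changes turned positive for RpL27 (0.041), RpL12 (0.093), RpL30 (0.11), RpS24 (0.037), RpS25 (0.12), RpS30 (0.043), RpS3 (0.14), asRNA:CR45874 (0.11) and asRNA:CR31144 (0.048). With quality weights those of RpL12 (0.016), RpL30 (0.021) and RpS15 (-0.12) changed sign, with the block those of RpL30 (0.023) and RpLP2 (-0.024), and on the 6 libraries without it those of RpL30 (0.013) and RpLP2 (-0.026). With 1 library left out the sign changed for RpL12 (-0.12 to 0.054), RpL30 (-0.11 to 0.053), RpL6 (-0.39 to 0.13), sta (-0.39 to 0.018), RpS24 (-0.33 to 0.053), RpS20 (-0.16 to 0.30), RpS15 (-0.092 to 0.27), RpS25 (-0.11 to 0.070), RpLP2 (-0.012 to 0.19), RpS3 (-0.28 to 0.19), asRNA:CR45874 (-0.085 to 0.0068), CG7099 (-0.0077 to 0.17) and Idh3g (-0.25 to 0.36). The cause of these changes was not tested, and none of these genes was called in any fit. The mutant minus control difference in the members' share of reads was -0.015 percentage points with TMM-scaled totals and -0.032 with library totals. Taken as a percent of the reads of features with no opposite-strand exon, the difference of the classes without one turned positive, to 0.104 for the small subunit (-0.0062 of all gene reads) and 0.042 for the large subunit (-0.0061). With 371700 to 560865 gene reads per library, 13 of 37 members below the filter with at least 4 reads in each group had ratio intervals wholly between 0.5 and 2.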
